A study of Mus musculus with 23 samples.

Results

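The genes described here belong to glycolysis, the pathway that breaks glucose down to pyruvate and lactate, and to the response to low oxygen. They are 39 genes named by symbol, and all 39 were found among the 23512 features of the deposited count table of fetal mouse hearts. By role they comprise 3 glucose transporters, 10 genes of upper glycolysis from hexokinase to triosephosphate isomerase, 6 of lower glycolysis from glyceraldehyde-3-phosphate dehydrogenase to enolase, and 6 of lactate and pyruvate handling. A further 4 genes, called the sensing genes below, encode oxygen-sensing prolyl hydroxylases or alpha subunits of the hypoxia-inducible factors (HIFs). The other 10 are known targets of the HIFs. They were taken by symbol, with no threshold on a value.

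The study sequenced RNA from whole hearts at embryonic day 13.5 of mice lacking G-protein receptor kinases (GRKs), the enzymes that phosphorylate active G-protein-coupled receptors and end their signalling. The 8 wild-type hearts carried GRK2 wt/wt, GRK5 wt/wt and GRK6 wt/wt alleles with no Cre. The 8 haploinsufficient hearts were GRK2 fl/wt, with GRK5 fl/fl, GRK6 KO/KO and Nkx2.5Cre. The 7 triple knockout hearts were GRK2 fl/fl, with the other alleles and Nkx2.5Cre as in the haploinsufficient group. All were labelled C57BL/6. Cre from Nkx2.5Cre acts in cells of the Nkx2-5 lineage, mainly cardiac muscle and its progenitors, so floxed alleles stay whole in other cells, whereas the GRK6 KO allele is carried by all cells. In both comparisons with wild type, Cre and the altered GRK alleles came together and their parts cannot be told apart. The GRK groups differ from each other, as labelled, only in the second GRK2 allele. The labels number the samples within a group and do not name litters or pools. Each p-value below sets a difference against the spread between these samples, and any shared litter or pool is not accounted for.

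Glycolysis yields ATP without oxygen. Hexokinase traps glucose in the cell, phosphofructokinase commits it to the pathway, and lactate dehydrogenase recycles the NAD needed by glyceraldehyde-3-phosphate dehydrogenase. Prolyl hydroxylases use oxygen to mark the HIF alpha subunits for breakdown. In low oxygen the subunits persist, pair with ARNT and bind the core letters ACGTG or GCGTG near genes for glucose uptake, glycolysis and vessel growth. The fetal heart relies on glucose and lactate more than the adult heart, which burns fatty acids, and the fetal heart forms in an oxygen-poor environment.

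Counts per library ran from 3838166 to 14050559 in wild type, from 1757257 to 11025358 in haploinsufficient hearts and from 6657734 to 13864731 in triple knockout hearts. A limit of 3 counts corresponds to 1.71 CPM in the shallowest library and 0.214 CPM in the deepest. CPM are counts scaled to library size, with sizes adjusted by the trimmed mean of M-values (TMM), to a common total per library. Cre was 0.332 ± 0.341 CPM (mean ± SD, n = 8) in wild type, 17.7 ± 4.90 (n = 8) in the haploinsufficient group and 18.5 ± 5.61 (n = 7) in the triple knockout, and Adrbk1, which encodes GRK2, was 54.3 ± 4.25, 42.5 ± 12.05 and 34.4 ± 6.60 CPM in the same order. Grk5 was 23.9 ± 2.50, 13.3 ± 2.23 and 14.2 ± 3.35 CPM in that order, and Grk6 30.7 ± 3.22, 15.7 ± 4.38 and 15.0 ± 3.42. Nkx2-5 itself was 98.3 ± 10.4, 70.2 ± 16.2 and 49.7 ± 12.9 CPM. Its log2 fold change against wild type was -0.50 ± 0.14 (haploinsufficient) and -0.98 ± 0.15 (triple knockout), edgeR adjusted p = 0.0667 and 2.9e-04. Between the GRK groups Nkx2-5 was at -0.48 ± 0.15 (edgeR adjusted p = 0.141). Its part in the values below was not tested. Cardiomyocyte markers were abundant in every library, their 18 genes summing to between 47263.9 and 102458 CPM. Markers of lung, foregut, liver and thymus, which neighbour the fetal heart, were higher in the GRK groups. In haploinsufficient hearts 12 of 13 tested had positive values against wild type, with a median log2 fold change of 1.17, and Foxf1 and Cldn6 rose; in the triple knockout 11 of 13 were positive with a median of 0.82 and none was called. Their score, the mean log2 difference from the wild-type mean, had a median of -0.15 in wild type, 1.32 in haploinsufficient hearts and 1.26 in the triple knockout. It exceeded 1.5 in 7 libraries, namely wild type 4, haploinsufficient 1, 7 and 8, and triple knockout 1, 3 and 7. Of those 7, haploinsufficient 7 and 8 and triple knockout 1 and 7 also had the lowest cardiomyocyte scores of the series, between -0.589 and -0.367. Results for Pgam2, Slc16a3, Hif1a and Higd1a are given with and without these libraries.

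The promoter sequences of these genes were examined for the HIF core letters, since the list joins enzymes with regulators of HIF. A RefSeq window from 250 bases before to 50 after the gene start was on hand for 35 of the 39 genes (build GRCm38.p6, 48 windows where a gene has several starts). ACGTG, searched on both strands, so that CACGTG counts once on each, was present in 27 of 48 windows (56.2%), against 19.6% of all 32851 windows. These promoters were also rich in CpG, with a median of 20 CpG per window against 7 over all windows. Among windows with at least 20 CpG, 19 of 26 held ACGTG (73.1%), against 29% of all windows of that kind. With GCGTG added the counts were 40 of 48 windows (83.3%) against 43.8%. Such a match describes letters and does not show that a factor bound there. The list was chosen to include known HIF targets, so these shares are not independent evidence of control by HIF. Windows of the same gene can overlap, as for Aldoa and Eno1, and each was counted. The 6 stretches below are shown because they cover a glucose transporter, an enzyme of lower glycolysis, lactate dehydrogenase, a lactate exporter, a classical HIF target and Hif1a itself. Each is 61 bases upstream of the RefSeq start of its window, written 5′ to 3′ on the gene's strand, which is plus except for Bnip3, and capitals mark ACGTG or its reverse complement CACGT. The Slc16a3 window belongs to a RefSeq start that lies inside the gene interval of the authors' gene models, so its stretch is upstream of that start only.

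Slc2a1 (chr4:119108681-119108741): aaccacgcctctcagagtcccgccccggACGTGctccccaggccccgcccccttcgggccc
Pgk1 (chrX:106186941-106187001): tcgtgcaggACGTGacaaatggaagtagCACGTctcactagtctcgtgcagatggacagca
Ldha (chr7:46845742-46845802): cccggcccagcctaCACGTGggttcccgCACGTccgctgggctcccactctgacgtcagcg
Slc16a3 (chr11:120949006-120949066): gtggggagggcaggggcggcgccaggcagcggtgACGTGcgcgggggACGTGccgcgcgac
Bnip3 (chr7:138909581-138909641): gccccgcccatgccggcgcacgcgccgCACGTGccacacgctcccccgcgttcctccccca
Hif1a (chr12:73907769-73907829): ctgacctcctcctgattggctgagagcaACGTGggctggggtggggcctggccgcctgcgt

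Ldha had the most matches, 5 in one window, and Hif1a, Pfkm and Slc16a1 each had a window with 3. The Pgk1 and Slc16a3 stretches each hold a pair of matches at separate places. The Bnip3 stretch holds a CACGTG, and the Ldha stretch a CACGTG and a further CACGT. Tpi1, Pgam2 and Eno3, all abundant in these hearts, had no ACGTG in their windows, which says only that these letters were not in those 300 bases.

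In wild-type hearts the levels of the 39 genes ran from 2.47 to 2077 FPKM. Levels between genes are compared as deposited FPKM, a value per kilobase of transcript. Gapdh, the enzyme that makes NADH in the middle of the pathway, was the most abundant on this scale, with 1802, 2077 and 2238 FPKM as the lowest, median and highest of 8 libraries. Aldoa, the main aldolase, followed with 1054, 1377 and 1555 FPKM. Ldha, which makes lactate from pyruvate, had a median of 877 FPKM, and Tpi1, triosephosphate isomerase, 869 FPKM. All 6 genes of lower glycolysis had medians of 216 FPKM or more. Upper glycolysis was less even: Gpi1, the isomerase after hexokinase, stood at 277 FPKM, the phosphofructokinase genes between 75.1 and 119 FPKM, Hk1 at 94.4 FPKM and Hk2 at 25.9 FPKM. Pfkfb3, whose product makes the activator of phosphofructokinase, was at 5.85 FPKM.

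The regulators and targets of the hypoxia response lay lower. Hif1a had a median of 28.9 FPKM and Epas1, which encodes HIF-2 alpha, 8.76 FPKM. Egln1, the main prolyl hydroxylase, was at 26.5 FPKM, and Egln3, a hydroxylase that HIF itself induces, at 4.22 FPKM. Among the targets, Vegfa, the growth factor of vessels, led with 60.3 FPKM, followed by Bnip3, a mitophagy receptor, at 41.6 FPKM and Higd1a, a mitochondrial protein induced by hypoxia, at 36.4 FPKM. P4ha1 and P4ha2, which hydroxylate collagen, were at 23.8 and 22.5 FPKM, and Ddit4, an inhibitor of mTORC1, at 17.5 FPKM. Ndrg1, a stress-induced gene, was at 7.66 FPKM and Ankrd37 at 6.65 FPKM. Adm, the vasodilator adrenomedullin, and Car9, the carbonic anhydrase widely used as a marker of hypoxia, were at 5.499 and 2.47 FPKM, and Car9 was the lowest of the 39.

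**Figure D1:**
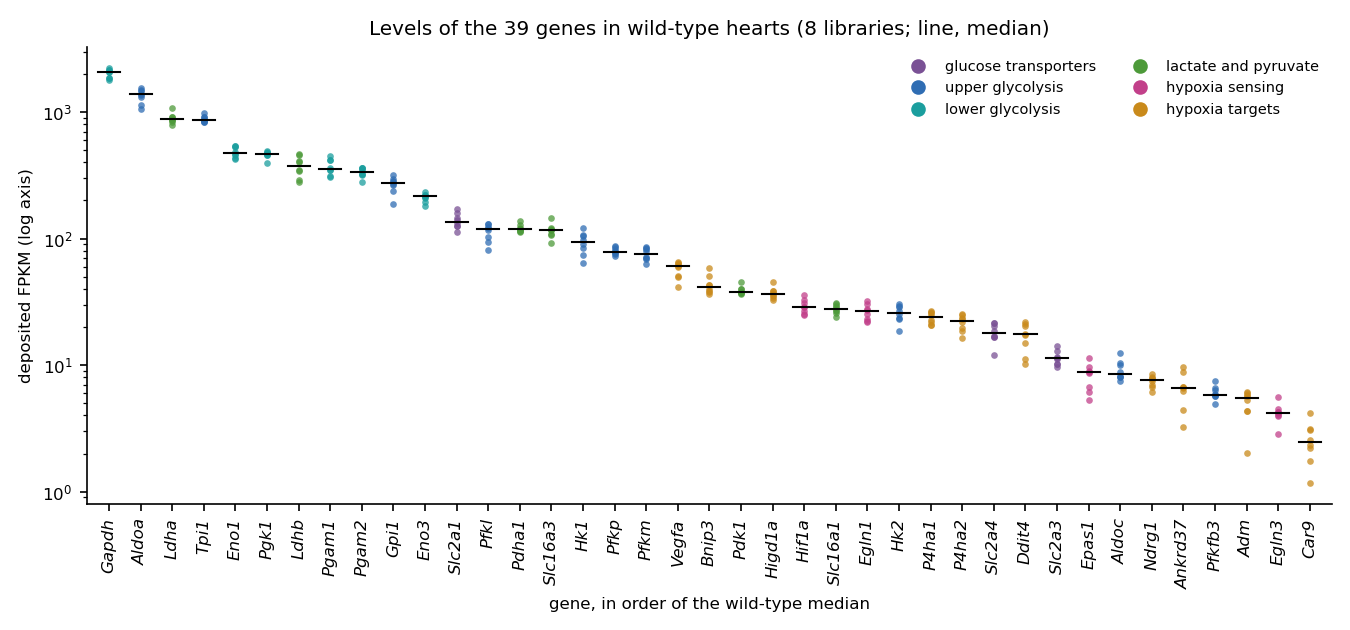
Deposited FPKM (log axis) of the 39 genes in the 8 wild-type libraries, ordered by median and coloured by role, with a line at the median. Levels fall from Gapdh at 2077 FPKM to Car9 at 2.47 FPKM, and most hypoxia targets lie to the right of the glycolytic enzymes.

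Most neighbours in this order did not differ beyond their spread: the wild-type ranges overlapped for 35 of 38 neighbouring pairs. The 3 pairs without overlap were Gapdh above Aldoa, Tpi1 above Eno1, and Eno3 above Slc2a1. Dividing CPM by the length of the gene model instead left 38 of 39 genes within 2 places. Aldoa then stood above Gapdh, with wild-type medians of 1086 and 989 CPM per kilobase, so which of them led depends on the scale. Eno1, the ubiquitous enolase, moved from rank 5 to rank 19. In the gene models used, 1649 of its 1776 exon bases (92.8%) on chromosome 4 are also annotated on the same strand as Gm5506, another gene model, and Eno1 had only 0.0835 of the CPM per kilobase that its FPKM gives, against a median ratio of 0.975 over 12151 genes. Eno1 had a wild-type median of 72.8 CPM beside 474 FPKM, how reads over both models were counted is not given in the sources used here, and its tests on counts are uncertain. Gapdh had a ratio of 0.483 and the other 37 genes lay between 0.75 and 1.25. The libraries keep no strand, so 3 more genes share exon bases with a gene on the opposite strand: Pdha1 with Map3k15 (21.8%), Pfkp with Pitrm1 (6.92%) and Tpi1 with Spsb2 (1.44%).

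At most steps 1 paralog held most of the FPKM of its step. In wild type Slc2a1, the basal glucose transporter GLUT1, held a median of 82.8% of the 3 transporters, Slc2a4, the insulin-responsive GLUT4 of adult muscle, 10.8%, and Slc2a3 6.69%. Hk1 held 78.4% of hexokinase over Hk2, Aldoa 99.3% of aldolase over Aldoc, and Slc16a3, the lactate exporter MCT4, 79.9% over Slc16a1. Ldha held 70.0% over Ldhb, the form that favours lactate use, and Eno1 69.4% over the muscle form Eno3. For enolase the order reversed on CPM per kilobase, where Eno1 held a median of 18.1% and Eno3 81.9%, so which enolase led in these hearts depends on the scale. Pgam1 and the muscle form Pgam2 were nearly even at 52.4% and 47.6%, and the medians of Pgam2 were 50.7% in haploinsufficient hearts and 53.8% in the triple knockout, with overlapping ranges. Phosphofructokinase was split among Pfkl at 42.02%, Pfkp at 29.6% and the muscle form Pfkm at 28.1%.

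Across genotypes the ranges of these shares overlapped for 17 of 18 shares in the haploinsufficient group against wild type and for all 18 in both comparisons of the triple knockout. The exception was Pfkp, the platelet form of phosphofructokinase. Its share was 28.2, 29.6 and 33.6% in wild type (lowest, median, highest) and 20.2, 25.9 and 27.7% in the haploinsufficient hearts, so every haploinsufficient library lay below every wild-type one. On CPM per kilobase these ranges also did not meet, at 28.8 to 34.4% and 20.6 to 28.4%. The triple knockout, at 24.05, 25.7 and 30.5%, overlapped both groups. Pfkl, the liver form, had a median share of 50.5% in haploinsufficient hearts and 48.5% in the triple knockout. The Pfkp share was singled out after its values were seen and was not tested, and Pfkp itself was not called (log2 fold change -0.28 ± 0.14 SE, haploinsufficient against wild type, edgeR adjusted p = 0.302).

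**Figure D2:**
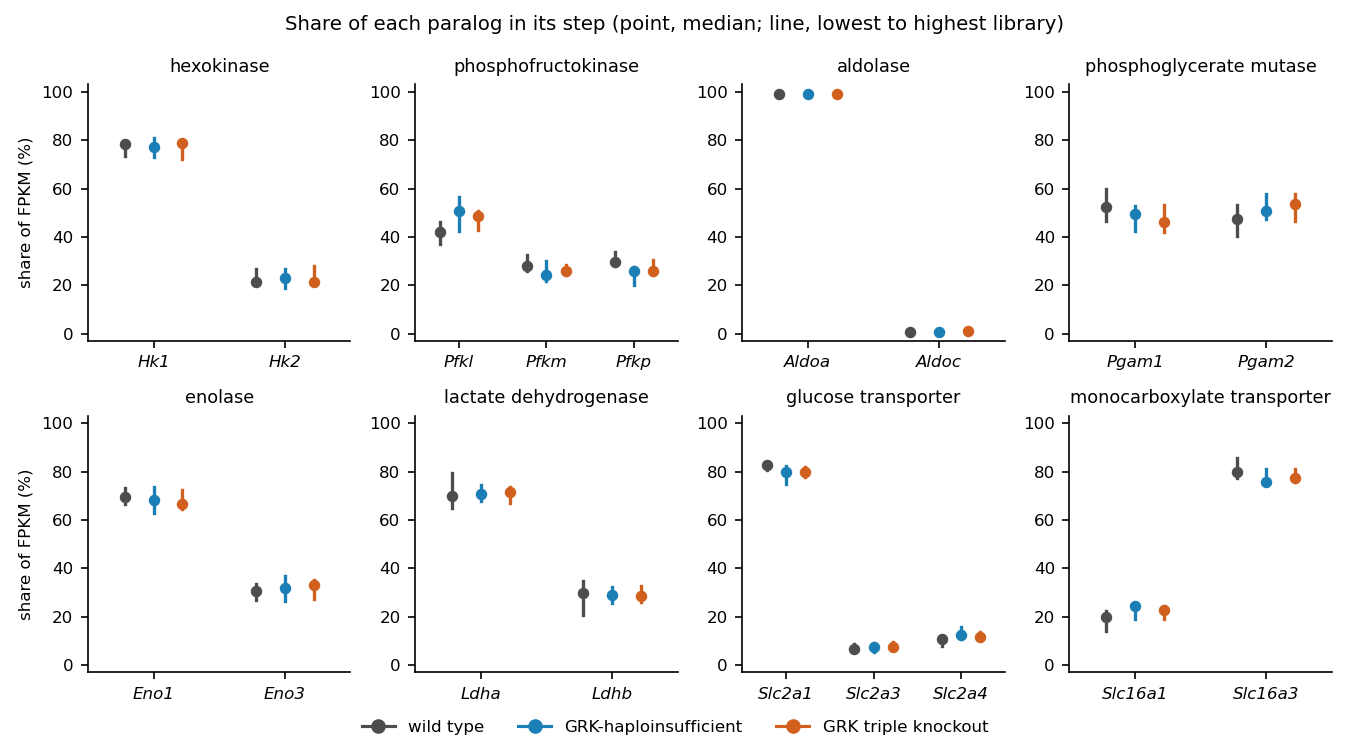
Share of each paralog in the summed FPKM of its step (percent), with a point at the median and a line from the lowest to the highest library of each genotype. On this scale the form with the highest median is the same in all 3 genotypes except at phosphoglycerate mutase, and only the Pfkp ranges of wild type and the haploinsufficient group do not meet.

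The main comparisons asked whether loss of GRKs altered these genes. All 39 passed the filter on low counts, and none was called in the triple knockout against wild type, in the haploinsufficient group against wild type or in the triple knockout against the haploinsufficient group (edgeR quasi-likelihood test, Benjamini-Hochberg adjusted p under 0.05 over 13941 genes). Over all genes tested, 1.19%, 2.24% and 0.395% were called in these 3 comparisons. At an unadjusted p under 0.05 there were 4, 6 and 2 of the 39 (10.3%, 15.4% and 5.13%), against 10.8%, 17.2% and 15.3% of all genes. DESeq2 called Hif1a alone in both comparisons with wild type and no gene of the 39 in the third, with 1.77%, 3.55% and 1.89% of all genes called. In no comparison were the libraries of the groups fully apart for any of the 39, against 0.94%, 0.452% and 0.0933% of all genes. The comparisons share groups, so their values are not independent of each other.

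The intervals were narrow for most of the genes. The 95% interval of the fold change lay within 1.5-fold of no difference, in either direction, for 36 of 39 genes (92.3%) in the triple knockout against wild type, 35 (89.7%) in the haploinsufficient group against wild type and 33 (84.6%) between the GRK groups. Over all genes tested the shares were 66.4%, 62.1% and 61.5%. Pgk1, phosphoglycerate kinase, was at 0.00 ± 0.13 (log2 fold change ± SE) in the triple knockout against wild type, Aldoa at 0.03 ± 0.13, Gapdh at -0.03 ± 0.12 and Vegfa at 0.02 ± 0.09. The genes whose intervals reached beyond 1.5-fold were Adm, Aldoc and Higd1a in the triple knockout against wild type, and Adm, Ankrd37, Car9 and Epas1 in the haploinsufficient comparison. Between the GRK groups they were Adm, Ankrd37, Car9, Egln3, Epas1 and Higd1a. Adm, Ankrd37 and Car9 had the fewest counts, with wild-type medians of 6.97, 5.03 and 4.68 CPM, and the widest intervals. The median log2 fold change of the 39 genes was -0.03, -0.01 and 0.00 in the 3 comparisons, and that of all genes was 0.01, 0.01 and 0.00.

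**Figure D3:**
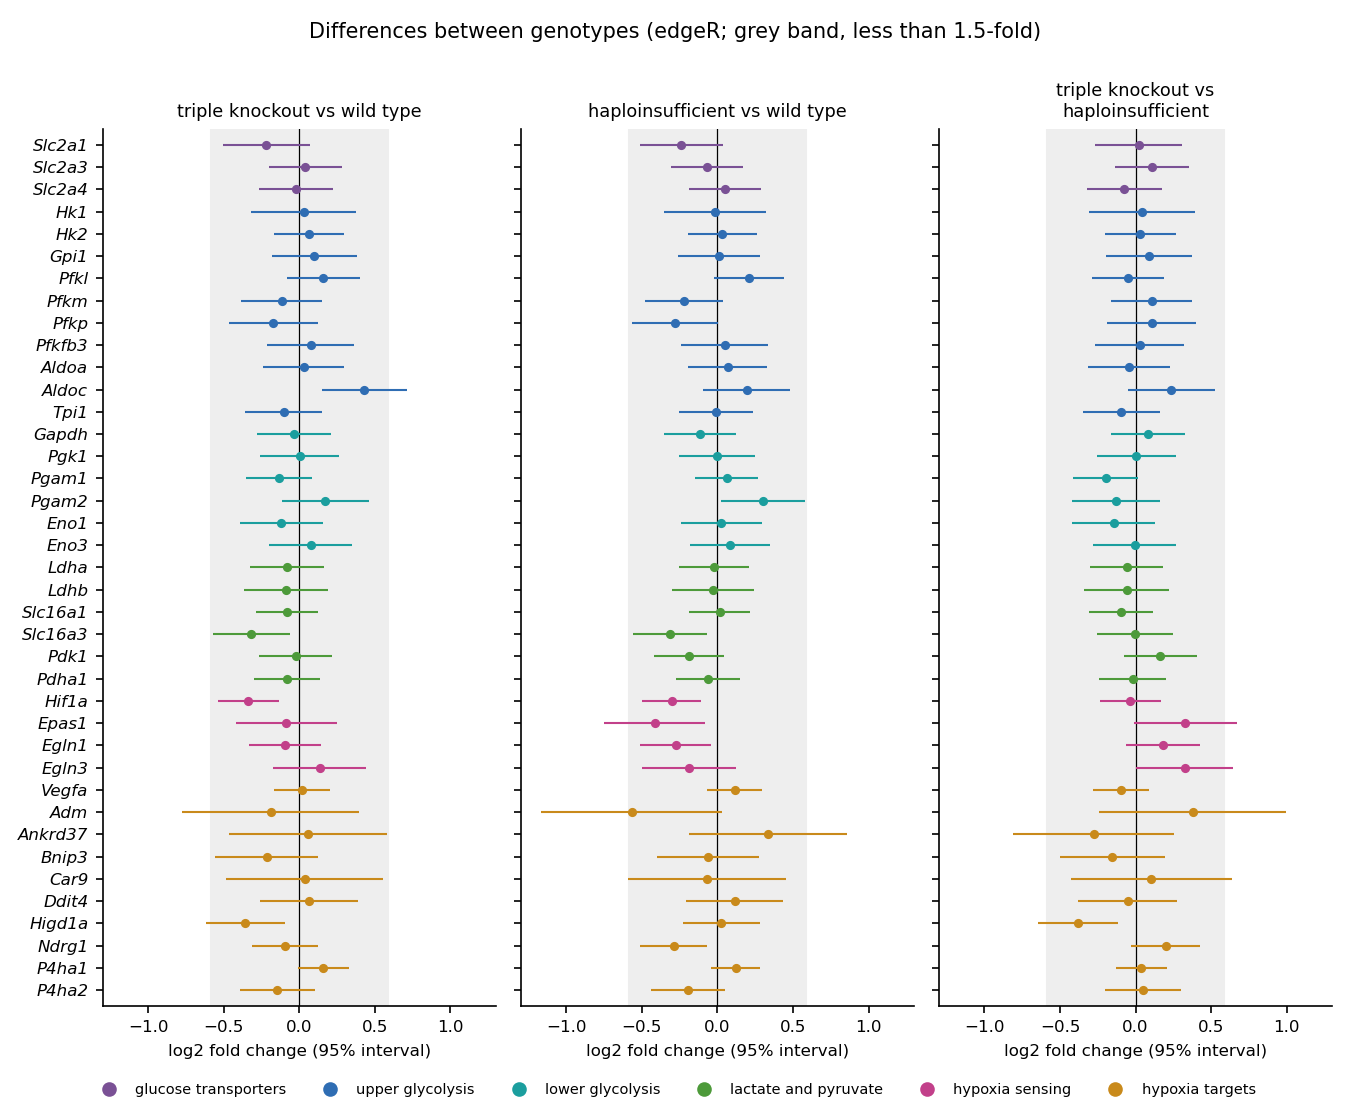
Log2 fold change with its 95% interval for each of the 39 genes in the 3 comparisons (edgeR), coloured by role; the grey band marks less than 1.5-fold. Most intervals lie inside the band, and the widest belong to Adm, Ankrd37 and Car9.

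Of the glucose transporters, Slc2a1 (chr4:119108745-119137329, mm10) had the smallest p in both comparisons with wild type. It was at 296, 347 and 457 CPM in wild type (lowest, median, highest), 202, 324 and 372 CPM in haploinsufficient hearts and 223, 299 and 396 CPM in the triple knockout. Both GRK groups had libraries below the lowest wild-type one, 4 of 8 and 3 of 7, and the groups overlapped. Its log2 fold change was -0.24 ± 0.14 in the haploinsufficient group (edgeR adjusted p = 0.373) and -0.22 ± 0.14 in the triple knockout (edgeR adjusted p = 0.631). Over all alternatives it ran from -0.32 to -0.12 in the haploinsufficient group and from -0.33 to -0.03 in the triple knockout. Slc2a3 and Slc2a4 stayed between -0.07 and 0.05 on the log2 scale in both.

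In upper glycolysis Aldoc (chr11:78324198-78326760, mm10), the aldolase known from brain, had the smallest p. Wild-type libraries ran from 11.8 to 20.7 CPM with a median of 13.8 CPM, haploinsufficient ones from 14.4 to 23.3 CPM with a median of 17.2 CPM, and triple knockout ones from 13.2 to 23.3 CPM with a median of 21.9 CPM. In the triple knockout 4 of 7 libraries lay above the highest wild-type one, while replicate 7 lay near the wild-type median. Its log2 fold change against wild type was 0.43 ± 0.14 (edgeR adjusted p = 0.158), and 0.52 ± 0.13 without triple knockout replicate 7 (edgeR adjusted p = 0.0479, where 0.899% of all genes were called); its adjusted p over all alternatives ran from 0.0479 to 0.887. Within the libraries with IDs 1 to 12 it was 0.73 ± 0.19, and within IDs 19 to 30 it was 0.19 ± 0.18. These IDs stand in the labels, which do not say what the numbers mean. Aldoc made up under 1.2% of aldolase FPKM in every library. Neural markers were also higher in the triple knockout: 9 of 9 tested had positive values with a median log2 fold change of 0.84, and 1 rose, the growth cone gene Gap43 (0.55 ± 0.11, edgeR adjusted p = 0.00389). The 12 neural markers, none at 0, summed to between 34.8 and 54.4 CPM in wild type, 36.8 and 71.5 CPM in haploinsufficient hearts and 45.7 and 169.5 CPM in triple knockout hearts. Their part in the Aldoc value was not tested. The remaining 9 genes of upper glycolysis lay between -0.17 and 0.16 in the triple knockout and between -0.28 and 0.21 in the haploinsufficient group on the log2 scale.

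In lower glycolysis Pgam2 (chr11:5801637-5803796, mm10), the muscle phosphoglycerate mutase, had the smallest p in the haploinsufficient group. It was at 206, 261 and 280 CPM in wild type, 237, 334 and 381 CPM in the haploinsufficient hearts and 192, 259 and 414 CPM in the triple knockout. In the haploinsufficient group 5 of 8 libraries exceeded the highest wild-type one, and the triple knockout lay on both sides of the wild-type range, with 3 libraries above it and 2 below. The log2 fold change in the haploinsufficient group was 0.30 ± 0.14 (edgeR adjusted p = 0.248). Without the 7 libraries of a high lung, foregut, liver and thymus score it was 0.47 ± 0.11 (edgeR adjusted p = 0.0444, with 0.794% of all genes called, and 0.0444 to 0.701 over all alternatives), and the triple knockout went from 0.17 ± 0.14 to 0.39 ± 0.12 (edgeR adjusted p = 0.239). Other genes of lower glycolysis lay between -0.13 and 0.08 in both comparisons with wild type.

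Among lactate and pyruvate genes Slc16a3 (chr11:120948484-120959000, mm10), whose product exports lactate, had the smallest p in both comparisons with wild type. Its wild-type libraries were at 229, 281 and 365 CPM (lowest, median, highest), the haploinsufficient ones at 189, 215 and 295 CPM and the triple knockout ones at 175, 241 and 291 CPM. Below the wild-type median lay 7 of 8 haploinsufficient and 6 of 7 triple knockout libraries, and the groups overlapped. The log2 fold change was -0.31 ± 0.12 in the haploinsufficient group (edgeR adjusted p = 0.169) and -0.32 ± 0.12 in the triple knockout (edgeR adjusted p = 0.286). Without the libraries of a high lung, foregut, liver and thymus score these became -0.23 ± 0.12 and -0.11 ± 0.13. Pdk1, the kinase that switches pyruvate dehydrogenase off, was at -0.19 ± 0.11 in haploinsufficient hearts and -0.02 ± 0.12 in the triple knockout. Ldha, Ldhb, Slc16a1 and the pyruvate dehydrogenase subunit Pdha1 lay between -0.09 and 0.02 in both.

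The lowest adjusted p of the 39 genes in the comparisons with wild type was that of Hif1a (chr12:73907867-73947530, mm10), the oxygen-regulated subunit of HIF-1. It was at 126, 144 and 182 CPM in wild type, 88.5, 113 and 160 CPM in the haploinsufficient hearts and 101, 113 and 128 CPM in the triple knockout. All 7 triple knockout libraries lay below the wild-type median and 6 below the lowest wild-type library, as did 5 of 8 haploinsufficient ones. The log2 fold change was -0.34 ± 0.10 in the triple knockout (edgeR adjusted p = 0.0975) and -0.30 ± 0.09 in the haploinsufficient group (edgeR adjusted p = 0.0889), and -0.03 ± 0.10 between them, with a 95% interval from -0.24 to 0.17. DESeq2 gave the same sizes and adjusted p = 0.0308 and 0.0435. The edgeR fit on the 2 groups compared alone gave -0.35 for the triple knockout (adjusted p = 0.0285, with 2.16% of all genes called). Leaving out haploinsufficient replicate 1, the highest of its group, gave -0.36 ± 0.09 (edgeR adjusted p = 0.0393, with 1.35% of all genes called). Limma on log2(FPKM + 0.1) gave -0.34 ± 0.09 for that group (adjusted p = 0.0396, with 2.14% of all genes called), and with a pseudocount of 1 it also called Hif1a (2.28% of all genes called). For the triple knockout limma gave -0.30 ± 0.09 (adjusted p = 0.139). Without the libraries of a high lung, foregut, liver and thymus score the values were -0.24 ± 0.11 (edgeR adjusted p = 0.701) in the triple knockout and -0.32 ± 0.10 (edgeR adjusted p = 0.148) in the haploinsufficient group. Within library IDs 1 to 12 the triple knockout was at -0.53 ± 0.15 and the haploinsufficient group at -0.20 ± 0.14. Within IDs 19 to 30 they were at -0.20 ± 0.10 and -0.42 ± 0.10, so the direction held in both ID sets and the order of the groups did not. Over all alternatives the adjusted p ran from 0.0285 to 0.701 in the triple knockout and from 0.0375 to 0.733 in the haploinsufficient comparison.

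The other sensing genes were also below wild type in the mean of the haploinsufficient hearts. Epas1 (chr17:86753864-86833410, mm10) was at 29.9, 46.8 and 64.5 CPM in wild type, 23.96, 31.9 and 47.8 CPM in the haploinsufficient group and 34.3, 42.8 and 57.7 CPM in the triple knockout. Its log2 fold change was -0.41 ± 0.16 in the haploinsufficient group (edgeR adjusted p = 0.183) and -0.09 ± 0.16 in the triple knockout (edgeR adjusted p = 0.907). Within IDs 1 to 12 the haploinsufficient group was at -0.11 ± 0.21 and the triple knockout at 0.18 ± 0.21. Within IDs 19 to 30 they were at -0.68 ± 0.21 and -0.31 ± 0.21. Egln1 was at 77.7, 95.05 and 120 CPM in wild type, 57.3, 76.1 and 106 CPM in the haploinsufficient group and 72.6, 90.04 and 111 CPM in the triple knockout, with log2 fold changes of -0.28 ± 0.11 and -0.09 ± 0.12 (edgeR adjusted p = 0.207 and 0.850). Egln3, at -0.19 ± 0.15, completed the 4 sensing genes with a negative value in the haploinsufficient group. Of the 4, 3 had an unadjusted p under 0.05 (edgeR), against 15.4% of the 39 genes and 17.2% of all genes, and none was called. Epas1 is an endothelial gene in the heart. Of 12 endothelial and endocardial markers, 3 fell in the haploinsufficient group, namely Cdh5, Npr3 and Tek, where 2.24% of all genes were called. In that group 9 of the 12 had negative and 3 had positive values, with a median log2 fold change of -0.13. In the triple knockout, where Epas1 was at -0.09, Npr3 fell as well (-0.46 ± 0.10, edgeR adjusted p = 0.0156). There 7 of the 12 were negative and 5 positive, with a median of -0.04, and 1.19% of all genes were called. The summed level of the 12 markers was 1143 to 1384 CPM in haploinsufficient hearts, 1251 to 1619 CPM in wild type and 1222 to 1519 CPM in the triple knockout, and their part in the Epas1 value was not tested. In RNA from whole hearts, fewer cells of a type and less RNA per cell cannot be told apart.

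Of the 10 HIF targets none was called in any comparison. Higd1a (chr9:121848560-121858000, mm10) had the smallest p in the triple knockout, at 39.1, 55.0 and 67.6 CPM (lowest, median, highest) against 61.2, 66.0 and 79.6 CPM in wild type and 46.0, 71.8 and 89.3 CPM in the haploinsufficient hearts. In the triple knockout 5 of 7 libraries lay below every wild-type one. The log2 fold change was -0.36 ± 0.13 against wild type (edgeR adjusted p = 0.225) and -0.38 ± 0.13 against the haploinsufficient group (edgeR adjusted p = 0.162). The last became -0.45 ± 0.12 without haploinsufficient replicate 3 (edgeR adjusted p = 0.0442, with 3.01% of all genes called, and 0.0442 to 0.815 over all alternatives). Without the libraries of a high lung, foregut, liver and thymus score the values were -0.19 ± 0.14 and -0.27 ± 0.15.

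Ndrg1 (chr15:66929318-66969641, mm10) had the smallest p of the targets in the haploinsufficient group. It was at 17.4, 22.3 and 25.2 CPM in wild type, 15.1, 17.5 and 21.3 CPM in the haploinsufficient hearts and 18.8, 19.5 and 26.4 CPM in the triple knockout. All 8 haploinsufficient libraries lay below the wild-type median. The log2 fold change was -0.29 ± 0.11 (edgeR adjusted p = 0.155) there and -0.09 ± 0.11 in the triple knockout (edgeR adjusted p = 0.834). Within the haploinsufficient comparison it was -0.07 ± 0.18 on IDs 1 to 12 and -0.48 ± 0.13 on IDs 19 to 30. The classical targets pointed in no shared direction: against wild type Vegfa was at 0.02 and 0.12, Bnip3 at -0.22 and -0.06, Car9 at 0.03 and -0.07, P4ha1 at 0.16 and 0.12 and Adm at -0.19 and -0.57 on the log2 scale in the triple knockout and haploinsufficient group.

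**Figure D4:**
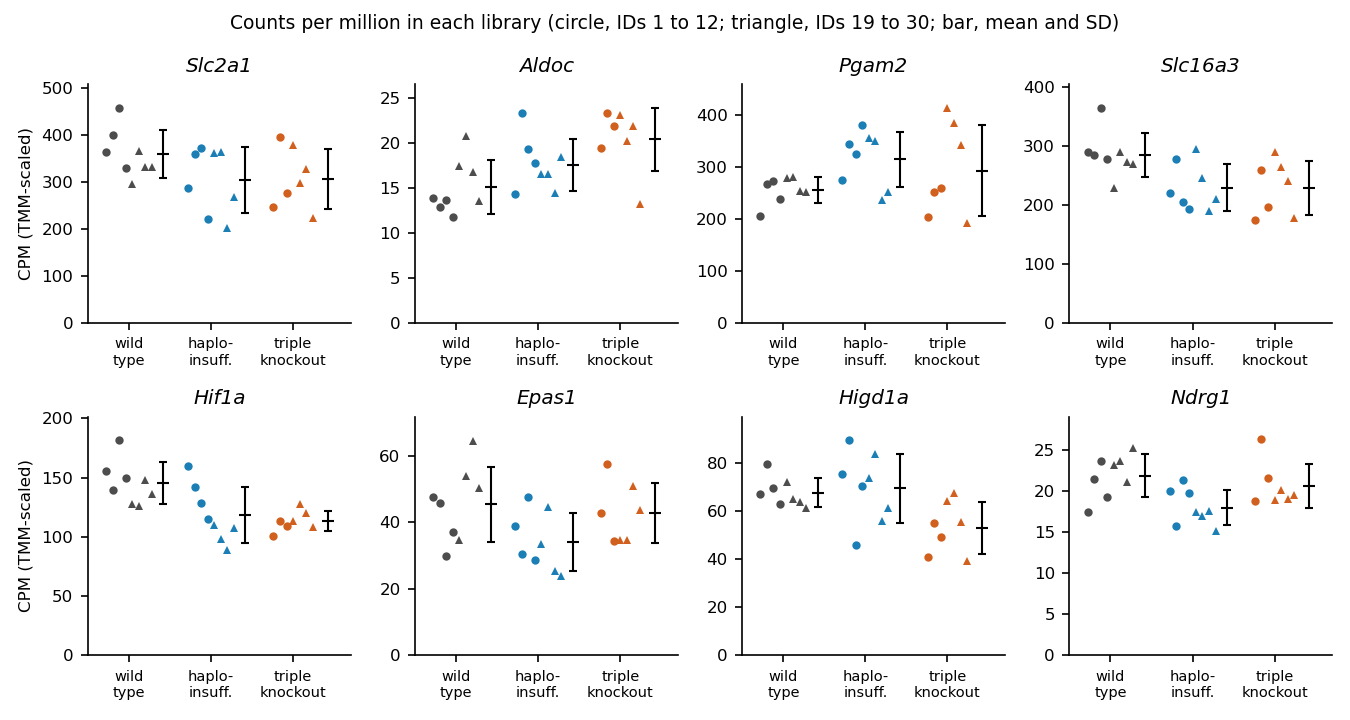
CPM of 8 genes in each of the 23 libraries by genotype, circles for library IDs 1 to 12 and triangles for IDs 19 to 30, with mean and SD beside the points. For Hif1a 6 of 7 triple knockout libraries lie below all wild-type ones, and in every panel the groups overlap.

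The spread between libraries is given as a description, without a test. The coefficient of variation of CPM had a median over the 39 genes of 14.1% in wild type, 19.2% in haploinsufficient hearts and 20.8% in the triple knockout. Over all genes tested it was 17.5%, 24.3% and 17.3%. Lower glycolysis had a median of 9.07% in wild type and 23.3% in the triple knockout. Tpi1, for example, was at 924, 1189, 1101, 1733, 1627, 1355 and 903 CPM in triple knockout replicates 1 to 7, while the wild-type libraries lay between 1231 and 1528 CPM. Pgam2 ran from 192 CPM in triple knockout replicate 7 to 414 CPM in replicate 4. Without the 3 triple knockout libraries of a high lung, foregut, liver and thymus score the median over the 39 genes was 10.8%, and 14.5% over all genes. Leaving out such libraries in the other groups changed little. The medians were then 18.3% in haploinsufficient hearts (24.4% over all genes) and 14.1% in wild type (17.2% over all genes).

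The low libraries were the same for many genes. Triple knockout replicate 7 was the lowest of its group for 18 of the 39 genes, replicate 1 for 14, and haploinsufficient replicate 7 for 16, whereas triple knockout replicate 4 was the highest for 19. Taking the 16 genes of upper and lower glycolysis together, the median log2 difference from the wild-type mean was -0.46 in triple knockout replicate 7, -0.34 in replicate 1 and -0.27 in haploinsufficient replicate 7. It was 0.37 in triple knockout replicate 4 and 0.29 in replicate 5. The cardiomyocyte score of these libraries was -0.59, -0.50 and -0.53 in the first 3 and 0.22 and 0.19 in the last 2. The lung, foregut, liver and thymus score was 2.26, 2.50 and 2.92 in the first 3 and 0.38 and -0.16 in the last 2. Wild-type replicate 1 was low too, at -0.24, with a cardiomyocyte score near 0 and a lung, foregut, liver and thymus score of 0.29. The other libraries with a lung, foregut, liver and thymus score over 1.5 lay nearer the wild-type mean. Their glycolysis medians were -0.07 and -0.11 in haploinsufficient replicates 1 and 8, -0.005 in triple knockout replicate 3 and -0.06 in wild-type replicate 4. The part of tissue makeup in the glycolytic levels was not tested. For the 14 hypoxia genes the same 3 low libraries had medians of -0.19, -0.29 and -0.29, and triple knockout replicates 4 and 5 had -0.03 and -0.01. Haploinsufficient replicates 5 and 6, with cardiomyocyte scores of 0.17 and 0.19, had hypoxia medians of 0.09 and 0.12.

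**Figure D5:**
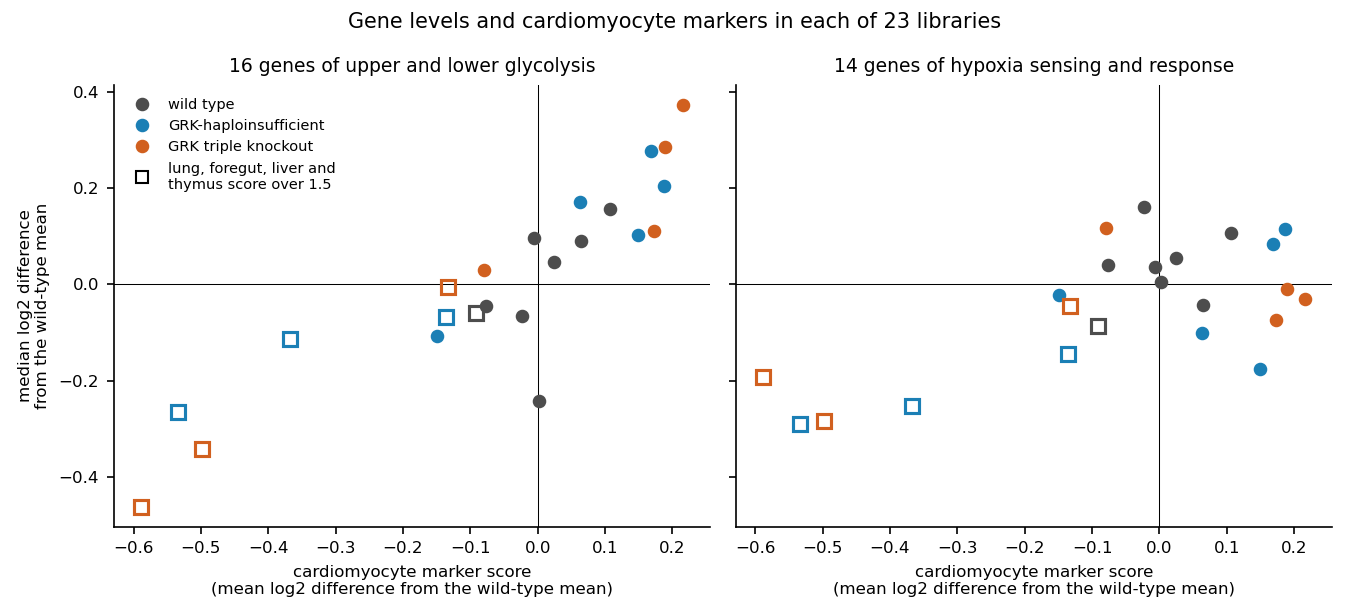
Median log2 difference from the wild-type mean for 16 glycolysis genes (left) and 14 hypoxia genes (right) against the cardiomyocyte marker score, 1 point per library; open squares have a lung, foregut, liver and thymus score over 1.5. Glycolysis genes run from -0.46 in the library with the lowest cardiomyocyte score to 0.37 in that with the highest. Hypoxia genes are below 0 in the 4 libraries with the lowest cardiomyocyte scores and lie on both sides of 0 elsewhere.

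The counts of calls among other genes of the same pathways stand beside 1.19%, 2.24% and 0.395% of all genes called in the 3 comparisons, and calls of 1 or 2 genes over these lists are near that background. None of 23 tested genes in a list of 32 others of glycolysis was called in any comparison, nor any of 13 genes for pyruvate entry into mitochondria. Pkm, pyruvate kinase and the last enzyme of the pathway, was at 2270, 2688 and 3577 CPM in wild type, 1975, 2829 and 3609 CPM in the haploinsufficient group and 2193, 2542 and 3395 CPM in the triple knockout. Its log2 fold changes were 0.06 ± 0.12 and -0.02 ± 0.13. None of 17 genes for HIF subunits, their sensors and the VHL complex was called either.

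Of 29 genes in branches from glycolysis, 1 fell in the triple knockout and none was called in the other comparisons, where 4 of 29 had an unadjusted p under 0.05 in each. That gene was Gpd1, cytosolic glycerol-3-phosphate dehydrogenase, which links glycolysis to lipid synthesis and shuttles NADH. It was at 4.71, 7.48 and 8.64 CPM in wild type, 2.83, 4.52 and 10.5 CPM in the haploinsufficient group and 2.43, 3.398 and 3.85 CPM in the triple knockout. Every triple knockout library lay below every wild-type one, with a log2 fold change of -1.14 ± 0.22 (edgeR adjusted p = 0.00342) and -0.57 ± 0.23 against the haploinsufficient group (edgeR adjusted p = 0.229). The haploinsufficient group was at -0.57 ± 0.21 against wild type (edgeR adjusted p = 0.159).

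Of 45 other HIF targets, 2 fell in the haploinsufficient hearts and none was called elsewhere. Tek, the angiopoietin receptor of endothelium, was at 148, 182 and 226 CPM in wild type, 108, 134 and 164 CPM in the haploinsufficient group and 135, 148 and 157 CPM in the triple knockout. Its log2 fold change was -0.45 ± 0.09 in the haploinsufficient group (edgeR adjusted p = 0.00493) and -0.32 ± 0.09 in the triple knockout (edgeR adjusted p = 0.0857). Vldlr, a lipoprotein receptor, was at -0.50 ± 0.10 (edgeR adjusted p = 0.00561) and -0.18 ± 0.10 (edgeR adjusted p = 0.577). Tek is also among the endothelial markers above. Of 11 tested skeletal muscle markers, 3 rose in each GRK group (Tnnt3, Myh2 and Tnni2), while 5 of the 11 in the triple knockout and 6 in the haploinsufficient group had negative values. The median log2 fold change of the 11 was 0.45 in the former and -0.00073 in the latter. None of 17 cardiomyocyte markers was called. None of 13 tested red cell markers was called in any comparison. The summed level of 16 red cell genes ran from 4352 to 23098 CPM over the 23 libraries, with Hba-a1 and Hba-a2, among the 16, at 0 counts. Whether red cells or muscle cells contributed to any difference above was not tested.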

How the data were processed

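RNA from 23 hearts was depleted of ribosomal RNA with RiboZero Gold and made into single-end libraries that keep no strand, per the labels' protocols. The authors deposited HTSeq counts per gene and Cufflinks FPKM, on build mm10; TopHat2 2.0.10 and Cufflinks 2.1 are named in the submitters' processing notes. Log2 values were computed here from these files.

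Counts were tested with edgeR 4.0.16 (TMM, filter at a minimum count of 10, quasi-likelihood test, terms for group and library ID set, all libraries, 13941 genes), with Benjamini-Hochberg adjustment over all of them. DESeq2 1.42.0 and limma 3.58.1 on FPKM were alternatives. Values are named for all 39 genes and given per group for the smallest p in each role; other lists name up to 3 called genes. Per-group values of Epas1 and Egln1 and per-library values of Tpi1 were added after they were seen. The genes and lists were chosen with earlier results of these data known. The scripts were tested on simulated data. No 2 libraries of the same group agreed within sampling noise. The 95% intervals of fold changes include the spread between libraries; the limit of 3 counts covers counting error only. The main fit did not pair samples by replicate number, and the labels do not say whether the numbers match across groups.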

Additional observations from a re-analysis of the deposited data

Results flagged for a closer look

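Among the 117 sets of 7 or 8 libraries (39 genes in 3 groups), 8 had 1 library far from the others of its group, by the gap to its nearest neighbour over the range of the group. The limit used flags about 1 in 20 sets of independent values. Genes within a library can vary together, so no comparison with chance is drawn for the 8 flagged sets. Wild-type replicate 3 accounted for 4 of them: Ldha at 1712 CPM against 1239 to 1443 in the others, Tpi1 at 1528 CPM against 1231 to 1363, Slc16a3 at 365 CPM against 229 to 290, and Pdha1 at 335 CPM against 263 to 297. In the triple knockout, Aldoc in replicate 7 was at 13.2 CPM, from 93 counts, against 19.4 to 23.3 CPM, and Ndrg1 in replicate 2 was at 26.4 CPM against 18.8 to 21.6 CPM. In the haploinsufficient group, Slc16a1 in replicate 2 was at 172 CPM against 105 to 135 CPM. Adm in replicate 4 was at 10.3 CPM, from 32 counts, against 1.24 to 5.48 CPM.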

How the results depend on the processing

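The number of the 39 genes called became 1 in the triple knockout against wild type under DESeq2 and with only the groups compared (Hif1a). In the haploinsufficient comparison it became 1 under DESeq2 and limma with a pseudocount of 0.1 or 1 (Hif1a) and without the libraries of a high lung, foregut, liver and thymus score (Pgam2). Leaving out 1 library gave 0 to 1 in each comparison. Intervals within 1.5-fold numbered 19 on IDs 1 to 12 alone, with fewer libraries, in both comparisons of the triple knockout, and 32 to 35, 32 to 35 and 33 to 34 with 1 library left out.

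Of 3549 values under alternatives, 13 changed sign after exceeding their SE and none of these was called. Without the libraries of a high score these were Pfkp 0.041 and Pgam1 0.021 (triple knockout against wild type) and Ankrd37 0.0043 (between GRK groups). On IDs 19 to 30 they were Pgam1 0.048 (triple knockout), Aldoc -0.064 and Vegfa -0.024 (haploinsufficient). On IDs 1 to 12 they were Pgam2 -0.037 (triple knockout), Gapdh 0.015, Ankrd37 -0.028 and P4ha1 -0.037 (haploinsufficient) and Pdk1 -0.060 (between GRK groups). Eno1 between GRK groups was 0.019 by limma with either pseudocount. The cause was not tested. Another 289 changed sign while smaller than their SE.

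Same-numbered samples correlated from -0.195 to 0.467, with 5 of 22 pairs over 0.1, and 2 of 23 samples matched their own number best. With the replicate number as a block 0 of the 39 genes were called, and 147, 222 and 16 of all genes, against 166, 312 and 55. Over all genes, and in the same order of comparisons, DESeq2 called 279, 531 and 251, the fit on only the groups compared 296, 246 and 1, limma 117, 290 and 0 (pseudocount 0.1) or 127, 309 and 0 (pseudocount 1), IDs 1 to 12 alone 50, 20 and 176, IDs 19 to 30 alone 51, 179 and 1, and the fit without high-score libraries 71, 111 and 0. Between the GRK groups library totals gave 34 and no filter 88. With 1 library left out the counts were 120 to 169, 159 to 615 and 10 to 420; the highest of the last 2 came without haploinsufficient replicate 3, and those next to them were 389 and 97. Adm, Ankrd37 and Car9 had the fewest counts and the widest intervals; whether depth or spread between hearts set them was not tested.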

Other observations

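The library ID set, IDs 1 to 12 against 19 to 30, had no called effect on the 39 genes (edgeR; 0.194% of all genes were called). The smallest p belonged to Pfkl, the liver form of phosphofructokinase, at 0.33 on the log2 scale for the later IDs (edgeR adjusted p = 0.202). No gene of the 39 had a genotype effect that differed between the ID sets after adjustment. The smallest p-values were those of Eno1 in the triple knockout against wild type, with a difference of 0.78 ± 0.23 (edgeR adjusted p = 0.243), and of Hif1a between the GRK groups, with 0.56 ± 0.17 (edgeR adjusted p = 0.230). For Eno1, most of whose exon bases are also annotated as Gm5506, FPKM gave -0.03 ± 0.11 for the triple knockout against wild type (limma adjusted p = 0.962).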
